A study of Mus musculus with 15 samples.

Results

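Most of the 41 transcripts described here encode centromere, kinetochore and spindle checkpoint proteins. *Cenpj* and *Cenpv* share the Cenp name, but their proteins are mainly at other sites. All 41 were chosen by name from the 21727 transcripts of the count table: every symbol made of Cenp and 1 further letter, together with the subunits of the Ndc80, Mis12 and Knl1 complexes, *Zw10* and *Zwilch* of the RZZ complex, the 3 Ska subunits and the spindle checkpoint genes *Bub1*, *Bub1b*, *Bub3*, *Mad1l1*, *Mad2l1* and *Ttk*. The rule used names alone, though it was chosen with earlier results of these data known. All 41 passed the filter on low counts, among 10085 transcripts tested. The study asked whether ribosomes that carry one or the other of 2 paralogous small subunit proteins, Rps27 (eS27) and Rps27l (eS27L), are found on different mRNAs. All cells were E14Tg2a.4 mouse embryonic stem cells (mESCs) grown with leukemia inhibitory factor and treated with cycloheximide (100 μg/mL), which halts translating ribosomes, before harvest. The *Rps27-FLAG* line carried a C-terminal 3xFLAG tag on endogenous *Rps27* and the *Rps27l-FLAG* line the same tag on endogenous *Rps27l*, each homozygous and each as 3 independently selected clones, while the 3 WT clones carried no tag. Ribosome-protected fragments (RPFs), the stretches of mRNA that a ribosome shields from nuclease, were read in 2 fractions: total RPFs, from the ribosomes that each of the 9 clones' nuclease-treated lysates left in the pellet of a sucrose cushion, and IP RPFs, from the ribosomes that anti-FLAG antibody pulled down in the 6 tagged clones, for 5 groups of 3 libraries.

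The kinetochore is the protein assembly that joins a chromosome to spindle microtubules during mitosis. It is built outward from nucleosomes that hold the histone variant Cenpa, through an inner layer called the constitutive centromere associated network (CCAN), to the Knl1, Mis12 and Ndc80 complexes, of which Ndc80 binds the microtubule. Unattached kinetochores recruit the RZZ complex, the motor protein Cenpe and the checkpoint proteins, which hold back anaphase by inhibiting Cdc20 until every chromosome is attached. mESCs divide rapidly and spend much of their cycle outside G1. Because RPFs were taken from whole cultures, a different share of cells in mitosis and a different number of RPFs per cell cannot be told apart, and mRNA levels were not analysed here.

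Library totals lay between 3972152 and 8064166 counts, with the IP libraries between 3972152 and 6673935 and the total libraries between 6313827 and 8064166. The 41 transcripts took 0.397% to 0.459% of the counts of a library. The cells carried the markers of their label, with a summed level of 8 pluripotency genes (*Pou5f1* and *Nanog* among them) of 3164 to 3507 normalized CPM (counts scaled to the size of the library) in total RPFs and 3718 to 3885 in IP RPFs. The summed level of 4 primitive endoderm genes was 3.68 to 23.7, that of 4 fibroblast genes 8.98 to 33.2 and that of 4 early germ layer genes 3.50 to 22.6 over the 15 libraries. The pluripotency genes were thus higher in every IP library than in any total library, and the part of this shift in the IP comparisons below was not tested.

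To show where translation of the best and least occupied members begins, the mRNA sequence around the annotated start codon is given for the 3 members with the highest and the 3 with the lowest RPF density in WT cells, and for the 4 further members with the lowest IP to total ratios. The sequences were read from the GENCODE M21 transcripts on GRCm38, 5′ to 3′, with the start codon in capitals and 10 bases before and 7 bases after it in lower case.
Bub3: cggacaggagATGaccggtt
Mad2l1: cgatctagtgATGgcacagc
Spc24: gcgatcagtcATGgcggctt
Cenpo: cgaagaggagATGgagtctg
Cenpb: gcgcgccgggATGggcccca
Cenpj: ttagattaaaATGttcctga
Cenpe: agcggacaggATGgccgagg
Cenpf: ataaaacaagATGagctggg
Knl1: gttttcaaaaATGgatgggg
Nuf2: gactcccataATGgaaactt
The start codons lie at chr7:131560710-131560712 on the plus strand for *Bub3*, chr3:135212659-135212661 on the plus strand for *Cenpe*, chr1:189685104-189685106 on the minus strand for *Cenpf*, chr2:119057297-119057299 on the plus strand for *Knl1* and chr1:169525432-169525434 on the minus strand for *Nuf2*. A purine at the third base before the start codon and a G directly after it are the best known features of a favourable start context in vertebrates. Of the 40 members whose context could be read (not *Nsl1*), 39 (97.5%) had the purine and 27 (67.5%) had the G, beside 87.6% and 54.2% of 9875 tested transcripts. *Cenpq* was the member without the purine, and *Bub3*, the most densely occupied member, had an A after its start codon. Both features were present in *Mad2l1* and *Spc24*, near the top, and in *Cenpo* and *Cenpb*, near the bottom. *Cenpj*, the least densely occupied member, had a T after its start codon. Whether start context went with density over the members was not tested.

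RPF density, the normalized CPM per kb of the counted coding sequence (CDS), allows levels of different transcripts to be compared. In WT total RPFs the members had a median density of 62.7, with a 25th to 75th percentile range of 37.5 to 111, beside a median of 25.5 over 10082 tested transcripts with an annotated CDS. The highest mean was 42.5 times the lowest. The 3 highest members were *Bub3*, which carries Bub1 and Bub1b to kinetochores (282 ± 39.3, SD, n = 3), *Mad2l1*, the protein that closes around Cdc20 in the checkpoint complex (250 ± 10.6), and *Spc24* of the Ndc80 complex (220 ± 47.0). Neighbours in this order overlapped between clones. The 3 lowest were *Cenpo* of the CCAN (11.8 ± 0.351), *Cenpb*, which binds a motif in centromeric satellite DNA (7.79 ± 1.17), and *Cenpj*, a centriole protein that shares the Cenp name (6.63 ± 0.463).

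Subunits of one complex did not have equal RPF density. Differences in mRNA level and in translation cannot be told apart in these values, and the part of CDS length in them was not tested. In the Ndc80 complex, a tetramer of Ndc80, Nuf2, Spc24 and Spc25, the pair nearest the inner kinetochore was the denser one, with *Spc24* at 220 ± 47.0 and *Spc25* at 135 ± 7.60, while *Ndc80* and *Nuf2*, which hold the microtubule binding end, were at 71.6 ± 6.0 and 57.5 ± 4.47. In the Knl1 complex, *Zwint* (215 ± 16.2) was 5.16 times denser than its scaffold partner *Knl1* (41.8 ± 1.92). In the Mis12 complex, *Pmf1* (143 ± 0.545) stood above *Mis12* (45.0 ± 2.04), *Nsl1* (40.4 ± 5.01) and *Dsn1* (22.7 ± 2.56). The range within the CCAN was wider, from *Cenpw* (199 ± 15.2), one of its histone fold subunits, down to *Cenpo*, a 16.9-fold difference. The 3 Ska subunits, which form a complex that tracks microtubule ends, lay within 1.38-fold of each other, at 91.3 ± 5.73 for *Ska3*, 68.7 ± 3.28 for *Ska1* and 66.3 ± 1.75 for *Ska2*. *Ska1* and *Ska2* were within the spread between clones. One limit touches *Ndc80*: 184 of its 1899 CDS windows of 28 nt (9.69%) also occur in the RNA *2700099C18Rik*, so fragments from there have no unique alignment, and its density could be understated.

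**Figure D1:**
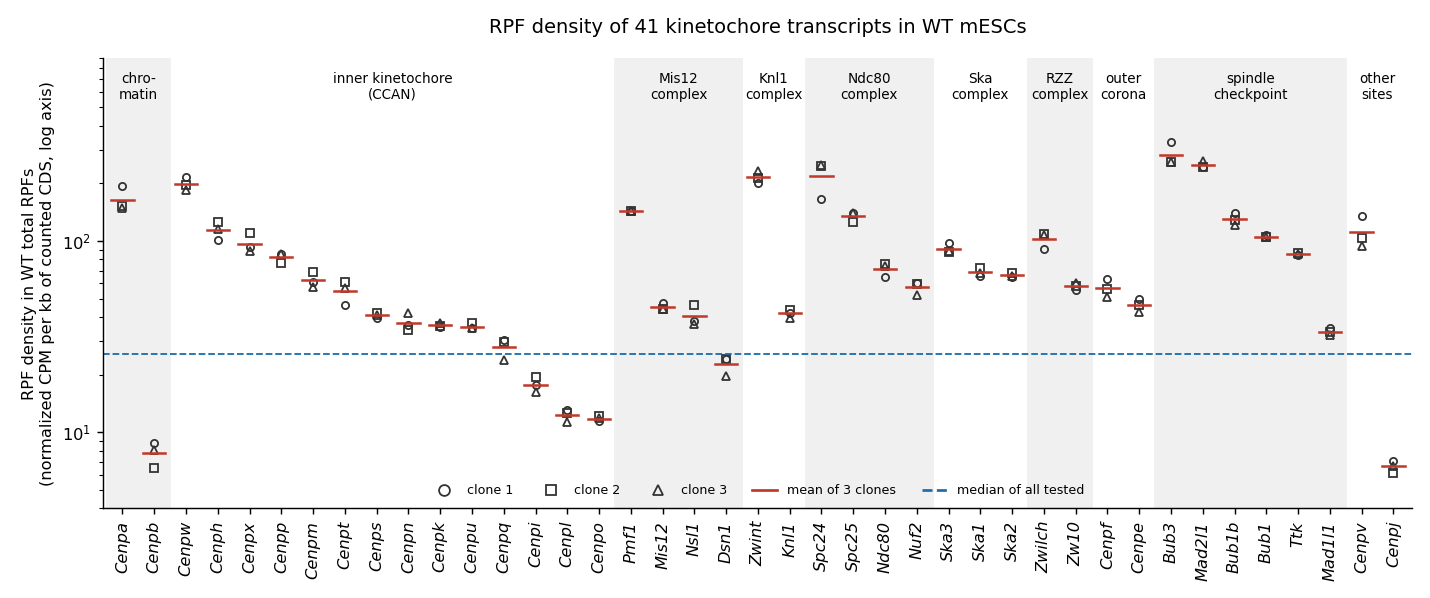
RPF density of each of the 41 members in WT total RPFs (normalized CPM per kb of counted CDS, log axis), grouped by complex, with 1 symbol per clone, the mean of 3 clones as a red line and the median of all tested transcripts (25.5) as a dashed line. *Bub3*, *Mad2l1* and *Spc24* stand highest and *Cenpo*, *Cenpb* and *Cenpj* lowest, and the spread between clones is small beside the range within most complexes.

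The 3 lines were first compared in total RPFs, to ask whether the tags themselves went along with other levels of these transcripts. None of the 41 members passed an adjusted p of 0.05 in any of the 3 comparisons (edgeR quasi-likelihood test with Benjamini-Hochberg adjustment over all tested transcripts), where 0% of all tested transcripts passed in each. At an unadjusted p under 0.05 there were 3 of the 41 members in *Rps27-FLAG* against WT, 3 in *Rps27l-FLAG* against WT and 2 in *Rps27l-FLAG* against *Rps27-FLAG*. Of all 10085 tested transcripts, 294, 574 and 580 were under this limit in the same 3 comparisons. DESeq2 and voom with limma also called 0 members. The comparisons share the WT or the tagged libraries. The members' log2 fold changes ranged from −0.19 to 0.26 in *Rps27-FLAG* against WT, with a median of 0.03 beside a median SE of 0.101, and from −0.40 to 0.27 in *Rps27l-FLAG* against WT, with a median of 0.03 beside a median SE of 0.101. In *Rps27l-FLAG* against *Rps27-FLAG* they ranged from −0.31 (*Cenpp*, a CCAN subunit; SE 0.0909) to 0.27 (*Ska2*; SE 0.116), with adjusted p = 0.803 for both.

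*Spc24* was the member whose call depended on how the libraries were paired. Its total RPFs were 89.8, 133 and 135 normalized CPM in the WT clones, 84.8, 124 and 123 in *Rps27-FLAG* and 78.1, 84.7 and 109 in *Rps27l-FLAG* (replicates 1, 2 and 3). Replicate 1 was the lowest library of each line, and the replicate number is also the sequencing batch. Within the 3 batches, the log2 ratio of *Rps27l-FLAG* to WT was −0.20, −0.65 and −0.31 (SD 0.235). The *Rps27l-FLAG* library was thus the lower one each time, although the groups overlapped. The log2 fold change of *Spc24* was −0.40 (SE 0.192, adjusted p = 0.821) without the replicate block and −0.39 (SE 0.0845, adjusted p = 0.0436) with it, in a fit in which 1.43% of all tested transcripts passed, 0.367% higher and 1.06% lower. It was then the 1 member called (2.44% of 41). In *Rps27-FLAG* against WT the block gave 0 members (0.00992% of all tested transcripts) and in *Rps27l-FLAG* against *Rps27-FLAG* 0 members (1.36%, 0.645% higher and 0.714% lower).

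**Figure D2:**
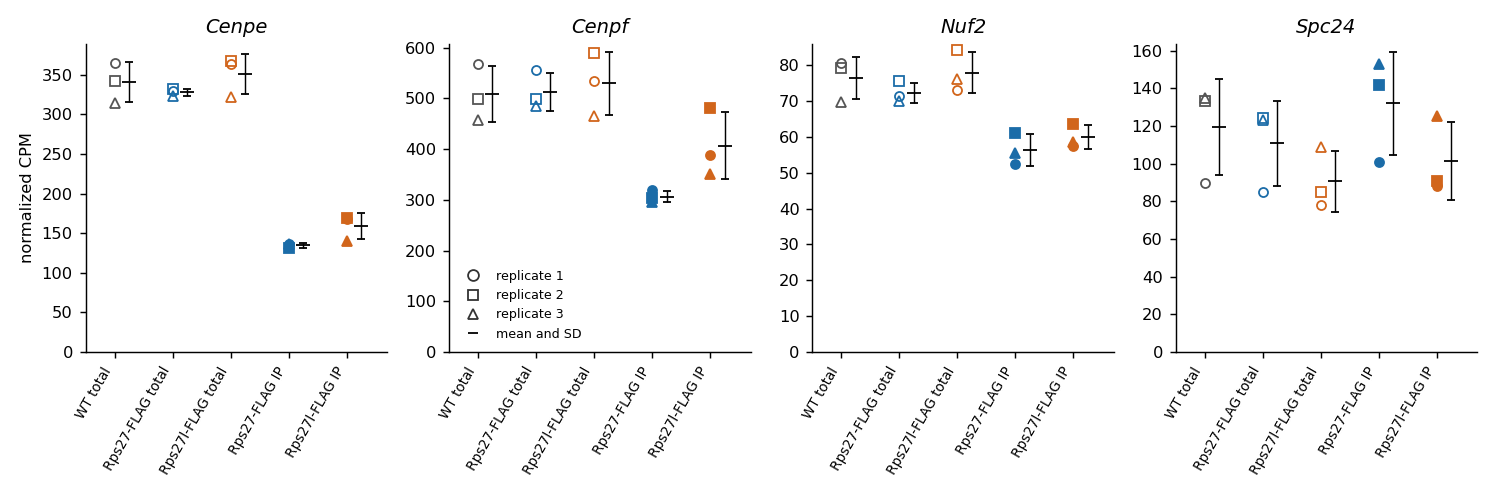
Normalized CPM of *Cenpe*, *Cenpf*, *Nuf2* and *Spc24* in all 15 libraries by group, with total RPFs as open and IP RPFs as filled symbols, 1 symbol shape per replicate number, and the mean and SD of 3 clones in black. The IP libraries of *Cenpe* (131 to 169) lie far below all total libraries (314 to 367), and those of *Nuf2* below all total libraries, while *Spc24* is lowest in replicate 1 of each group.

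Within each tagged line, IP RPFs were then set against total RPFs, which asks which transcripts are more or less frequent on ribosomes that carry the tagged protein. The fold changes are relative, since IP and total libraries were each scaled to their own composition, and no untagged IP was analysed here. In *Rps27-FLAG*, 5 of the 41 members (12.2%) passed and all 5 fell: *Cenpe*, *Cenpf*, *Knl1*, *Nuf2* and *Bub3*. Over all tested transcripts 5.67% passed, 5.34% lower and 0.327% higher. In *Rps27l-FLAG*, 2 of the 41 (4.88%) passed and both fell, *Cenpe* and *Knl1*, where 3.10% of all tested transcripts passed, 2.27% lower and 0.833% higher. The IP and total libraries of one replicate came from one clone, and with the clone as a block many more transcripts passed: 23 members in *Rps27-FLAG* (56.1%, beside 41.2% of all tested) and 16 in *Rps27l-FLAG* (39.0%, beside 31.0%). Of these, 15 rose and 8 fell in *Rps27-FLAG* (36.6% and 19.5%, beside 18.3% and 22.9% of all tested), and 8 rose and 8 fell in *Rps27l-FLAG* (19.5% each, beside 12% and 19.0%). Adjusted p-values with the block rest largely on a spread estimated over all tested transcripts, not on a transcript's own 3 clones alone. They can be far smaller than the spread of the clone ratios would give. The median log2 fold change of the 41 was 0.10 in *Rps27-FLAG*, with 27 above 0, and 0.04 in *Rps27l-FLAG*, with 24 above 0, beside −0.01 and −0.03 over all tested transcripts.

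The calls without the block depended on which clones were present. With replicate 2 or 3 of *Rps27-FLAG* left out, 0 members and 0% of all tested transcripts passed in that line, and with replicate 1 left out 9 members did (22.0%, beside 17.9% of all tested). With replicate 1 or 2 of *Rps27l-FLAG* left out, 0 members and 0% of all tested transcripts passed in that line, and with replicate 3 left out 2 members did (4.88%, beside 3.15% of all tested). The value of *Cenpe* hardly moved: it stayed between −1.30 and −1.26 in *Rps27-FLAG* and between −1.15 and −1.11 in *Rps27l-FLAG* over these fits. Not every member was as steady. The largest log2 fold change of a member in *Rps27-FLAG* was 0.35 with all clones. It was 0.47 without replicate 2 and 0.33 without replicate 1 or 3. With the clone as a block, 17 to 18 members passed in *Rps27-FLAG* (beside 33.0% to 33.3% of all tested transcripts) and 12 to 13 in *Rps27l-FLAG* (beside 23.7% to 25.0%) when any 1 clone was left out, *Cenpe*, *Cenpf*, *Knl1*, *Nuf2* and *Bub3* among them every time.

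*Cenpe*, a very long kinesin that carries chromosomes toward the spindle equator, moved the most. Its IP RPFs were 136, 131 and 136 normalized CPM in the *Rps27-FLAG* clones, against 329, 332 and 323 in their total RPFs. In the *Rps27l-FLAG* clones the IP RPFs were 168, 169 and 141, against 364, 367 and 322. Every IP library was therefore below every total library, WT included (365, 342 and 314). The log2 fold change was −1.29 (SE 0.055, adjusted p = 1.15e-04) in *Rps27-FLAG* and −1.14 (SE 0.0887, adjusted p = 0.00307) in *Rps27l-FLAG*. Clone by clone, the log2 ratio of IP to total was −1.27, −1.34 and −1.24 in *Rps27-FLAG* and −1.11, −1.12 and −1.19 in *Rps27l-FLAG*.

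*Cenpf*, the other large coiled-coil protein of the outer corona and a partner of dynein regulators, fell less, and not equally in both lines. Its IP RPFs were 319, 303 and 297 normalized CPM against total RPFs of 556, 498 and 484 in *Rps27-FLAG*. In *Rps27l-FLAG* they were 389, 481 and 351 against 534, 590 and 465. IP and total libraries did not overlap in *Rps27-FLAG* and overlapped in *Rps27l-FLAG*, where replicate 2 was the highest in both fractions. The log2 fold change was −0.74 (SE 0.0700, adjusted p = 0.0016) in *Rps27-FLAG*, and in *Rps27l-FLAG* −0.38 (SE 0.123, adjusted p = 0.156) without the block and −0.38 (SE 0.0305, adjusted p = 1.59e-16) with it. The 3 *Rps27l-FLAG* clone ratios had an SD of 0.0838, a spread that the SE and p-value with the block do not measure.

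In the Knl1 complex both partners were measured in every library and their IP to total ratios went in opposite directions. *Knl1*, the scaffold that Bub1 and Bub3 bind at the kinetochore, had IP RPFs of 160, 148 and 156 normalized CPM against total RPFs of 255, 258 and 242 in *Rps27-FLAG*, and of 185, 179 and 187 against 266, 259 and 274 in *Rps27l-FLAG*. It fell by 0.70 on the log2 scale (SE 0.060, adjusted p = 0.0013) in *Rps27-FLAG* and by 0.53 (SE 0.0553, adjusted p = 0.0044) in *Rps27l-FLAG*, with no overlap between fractions. *Zwint*, which binds the end of Knl1, had clone ratios (log2, IP to total) of 0.03, 0.26 and 0.28 in *Rps27-FLAG* and of 0.14, 0.20 and 0.20 in *Rps27l-FLAG*. Its log2 fold changes of 0.20 (SE 0.114) and 0.18 (SE 0.0921) passed only with the clone as a block, at adjusted p = 4.54e-06 and 2.21e-04. The 3 *Rps27-FLAG* clone ratios had an SD of 0.138, and these p-values do not measure that spread.

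The same split ran through the Ndc80 complex. *Nuf2* had IP RPFs of 52.4, 61.1 and 55.5 normalized CPM against total RPFs of 71.3, 75.5 and 70.1 in *Rps27-FLAG*, and of 57.5, 63.6 and 58.5 against 73.2, 84.2 and 76.2 in *Rps27l-FLAG*. No IP library reached the lowest total library. *Nuf2* fell by 0.36 on the log2 scale (SE 0.0828, adjusted p = 0.0458) in *Rps27-FLAG*, and its log2 fold change of −0.38 (SE 0.0847) in *Rps27l-FLAG* had adjusted p = 0.0562 without the block and 2.44e-07 with it. Its direct partner *Ndc80* had clone ratios of 0.15, 0.08 and 0.10 in *Rps27-FLAG* and of 0.04, 0.00 and 0.13 in *Rps27l-FLAG*. *Spc24* and *Spc25* lay above 0 in all 6 clones, between 0.10 and 0.31 for *Spc24* and between 0.02 and 0.36 for *Spc25*. With the clone as a block *Spc24* rose in both lines (0.25 and 0.16), and *Spc25* (0.24) and *Ndc80* (0.11) rose in *Rps27-FLAG*. Thus 1 of the 4 subunits lay below 0 and 3 at or above it in every clone, and differences between subunits were not tested.

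Among the checkpoint genes, *Bub3* was the 1 member that passed without a block. Its IP RPFs were 230, 220 and 206 normalized CPM against total RPFs of 282, 257 and 261 in *Rps27-FLAG*, and 253, 242 and 227 against 298, 266 and 259 in *Rps27l-FLAG*. The IP library was the lower one in all 6 clones. *Bub3* fell by 0.29 on the log2 scale (SE 0.068, adjusted p = 0.0498) in *Rps27-FLAG*, close to the threshold, and in *Rps27l-FLAG* its log2 fold change of −0.19 passed with the block (adjusted p = 5.06e-06) but not without it (adjusted p = 0.233). *Mad1l1*, which anchors Mad2l1 at kinetochores, and *Bub1*, a kinase that phosphorylates histone H2A at centromeres, fell with the block in both lines (−0.22 and −0.14 for *Mad1l1*, −0.09 and −0.12 for *Bub1*). With the length trend also removed *Mad1l1* passed in neither line, and *Bub1* was at 0.11 and 0.06 and passed as higher in *Rps27-FLAG*. *Mad2l1* (0.19 and 0.17) and *Ttk*, the kinase Mps1 that starts checkpoint signalling (0.11 and 0.09), rose with the block in both lines. *Bub1b*, encoding BubR1, passed in neither line, with log2 fold changes of −0.02 and −0.05.

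**Figure D3:**
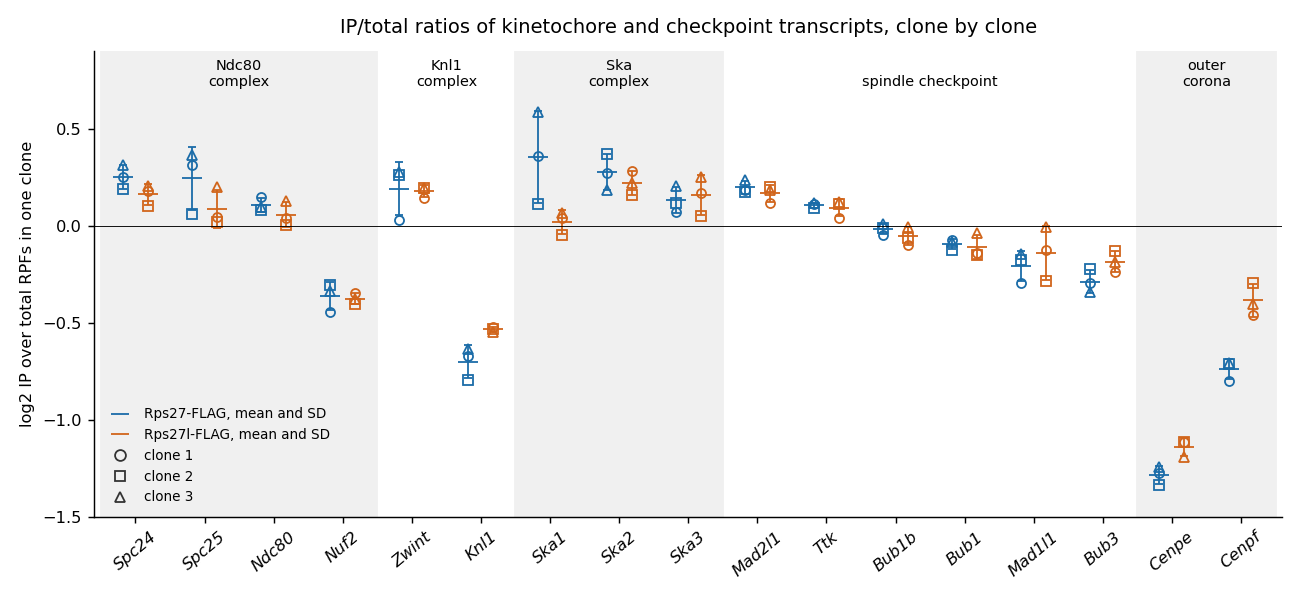
Log2 ratio of IP to total RPFs in each of the 6 tagged clones (vertical axis) for the Ndc80, Knl1 and Ska complexes, the checkpoint genes and the corona proteins, with *Rps27-FLAG* in blue, *Rps27l-FLAG* in orange, 1 symbol shape per clone, and bars for the mean and SD of 3 clones. *Nuf2* and *Knl1* lie below their complex partners in every clone, and the clones of both lines separate for *Cenpf* (−0.80 to −0.71 against −0.46 to −0.29).

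None of the members in the inner layers or in the Mis12, Ska and RZZ complexes passed without the block. *Cenpa*, the centromeric histone, rose in *Rps27-FLAG* with the clone as a block (log2 fold change 0.23, SE 0.0594, adjusted p = 7.85e-04), and its *Rps27l-FLAG* log2 fold change of 0.10 (SE 0.0601) did not pass. *Cenpb* passed in neither line. Of the 14 CCAN members, *Cenph* (0.17 and 0.24) and *Cenpu* (0.19 and 0.21) passed as higher with the block in both lines and *Cenpk* (0.22) and *Cenpw* (0.17) in *Rps27-FLAG*, and none fell in any of these fits. The *Cenpu* clone ratios in *Rps27-FLAG* were −0.005, 0.20 and 0.41 (SD 0.208), so replicate 1 showed no rise. In the same line those of *Cenpk* were 0.24, 0.37 and 0.02 (SD 0.178) and those of *Cenpw* 0.03, 0.28 and 0.26 (SD 0.141). The other 10 CCAN members passed in neither line. In the Mis12 complex *Pmf1* rose with the block in both lines (0.24 and 0.15), and *Mis12*, *Dsn1* and *Nsl1* passed in neither. Among the Ska subunits *Ska3* rose with the block in both lines (0.13 and 0.16), and *Ska1* (0.34) and *Ska2* (0.28) in *Rps27-FLAG*. *Zw10* of the RZZ complex fell with the block in *Rps27l-FLAG* (−0.13, adjusted p = 0.0186) and *Cenpj* in *Rps27-FLAG* (−0.26, adjusted p = 0.0346), while *Zwilch* and *Cenpv* passed in neither line. The *Cenpj* clone ratios in *Rps27-FLAG* were −0.27, −0.44 and −0.003 (SD 0.221), so replicate 3 showed almost no fall.

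These directions followed the length of the coding sequence to a large degree. The members' CDSs ran from 234 nt (*Cenpx*) to 8991 nt (*Cenpf*), with a median of 978 nt beside 1440 nt over all tested transcripts, and their median GC content was 45.6% beside 52.7%. Across the 41 members, Spearman's rho between CDS length and the log2 fold change was −0.70 in *Rps27-FLAG* and −0.66 in *Rps27l-FLAG*, beside −0.56 and −0.53 over 10082 transcripts. These are correlations across transcripts of the same libraries and carry no test. The 3 longest members, *Cenpf*, *Cenpe* (7413 nt) and *Knl1* (6357 nt), were also the 3 that fell the most in *Rps27-FLAG*. Without these 3, the summed level of the members was 3275 to 3570 normalized CPM in IP RPFs and 3242 to 3418 in total RPFs, while with them it was 3968 to 4179 in IP and 4263 to 4568 in total RPFs.

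Set against transcripts whose CDS differed from theirs by at most 10%, the long members differed among themselves. *Cenpe* lay below 109 of 110 such transcripts in *Rps27-FLAG*, whose median log2 fold change was −0.39, and below all 110 in *Rps27l-FLAG* (median −0.33). *Knl1* was within the range of its length class, with 24 and 30 of 138 transcripts below it, and so was *Cenpf*, with 13 of 63 below it in *Rps27-FLAG* and 30 of 63 in *Rps27l-FLAG*. *Nuf2* (1389 nt) and *Bub3* (978 nt), whose lengths carry almost no shift, had 74 and 50 of 1155 and 40 and 114 of 967 transcripts below them. When the length trend was removed from each library, *Cenpe* was the 1 member called in each line, at −0.87 in *Rps27-FLAG* and −0.81 in *Rps27l-FLAG* (2.44% of 41, beside 0.268% and 0.0793% of all tested transcripts).

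With the length trend removed and the clone as a block, 15 members passed in *Rps27-FLAG* (36.6%, beside 31.4% of all tested) and 12 in *Rps27l-FLAG* (29.3%, beside 22.7%). *Cenpe* (−0.88 and −0.81), *Knl1* (−0.33 and −0.23), *Nuf2* (−0.33 and −0.33) and *Bub3* (−0.32 and −0.20) fell in both lines, and *Cenpf* (−0.29) in *Rps27-FLAG*, where in *Rps27l-FLAG* it was at −0.02 (adjusted p = 0.68). *Ttk* (0.26 and 0.22), *Bub1b* (0.19 and 0.12), *Ndc80* (0.20 and 0.14), *Cenpu* (0.20 and 0.24), *Ska3* (0.14 and 0.19) and *Zwint* (0.11 and 0.13) passed as higher in both lines. Many calls of the block alone ended. In *Rps27-FLAG*, 7 of the 15 rises kept their call, and *Cenpa*, *Cenph*, *Cenpk*, *Cenpw*, *Mad2l1*, *Pmf1*, *Ska2* and *Spc25* lost it, as did the falls of *Mad1l1* and *Cenpj*. In *Rps27l-FLAG*, *Mad2l1*, *Pmf1* and *Spc24* no longer passed as higher, nor *Cenpf*, *Mad1l1*, *Zw10* and *Bub1* as lower. *Cenpt*, *Bub1b* and *Bub1* in *Rps27-FLAG* and *Ndc80*, *Zwilch* and *Bub1b* in *Rps27l-FLAG* passed as higher with the trend removed and not with the block alone. *Bub1* (both lines), *Cenpw* and *Cenpj* (*Rps27-FLAG*) changed sign, of which *Bub1* passed in the new direction in *Rps27-FLAG* (0.11, adjusted p = 0.0020).

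**Figure D4:**
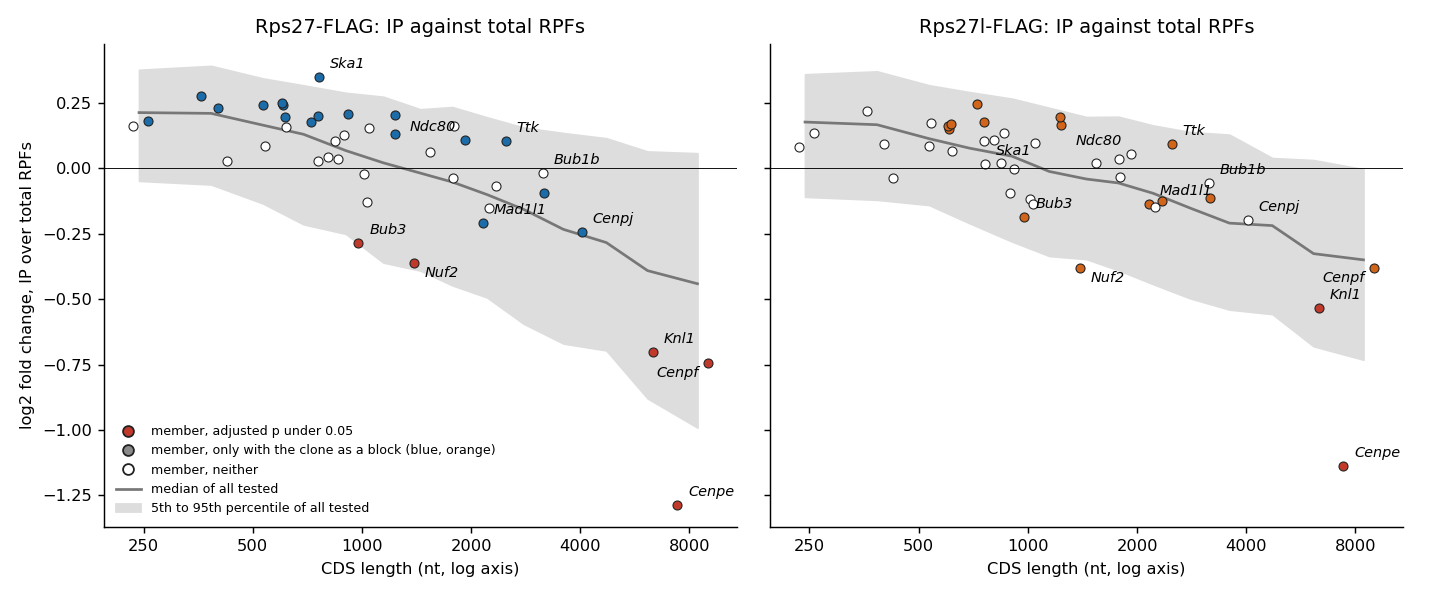
Log2 fold change of IP over total RPFs (vertical axis) against CDS length (nt, log axis) for the 41 members in *Rps27-FLAG* (left) and *Rps27l-FLAG* (right), with members called without a block in red, those called only with the clone as a block in blue or orange, the others white, and the median and 5th to 95th percentile of all tested transcripts in grey. Most members follow the grey median downward with length, *Cenpe* (−1.29 and −1.14) lies far below the grey band in both lines, and *Nuf2* lies near or below its lower edge.

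The last comparison asked whether the IP to total ratio differed between *Rps27l-FLAG* and *Rps27-FLAG*, in a fit of 12 libraries that holds each clone as a block. A transcript was called at an adjusted p under 0.05 and an absolute log2 difference over 0.25. *Cenpf* was the 1 member called (2.44% of 41, beside 0.575% of all tested transcripts, 0.476% of them higher in *Rps27l-FLAG*). Its ratio was higher in *Rps27l-FLAG* by 0.36 on the log2 scale (SE 0.0434, adjusted p = 6.08e-10). The clone ratios were −0.46, −0.29 and −0.40 in *Rps27l-FLAG* and −0.80, −0.71 and −0.71 in *Rps27-FLAG*, with no overlap. The IP RPFs of the 2 lines (351 to 481 against 297 to 319 normalized CPM) did not overlap, whereas their total RPFs did (465 to 590 against 484 to 556). Of the 63 transcripts within 10% of its length, 58 had a lower signed difference, and with the length trend removed it was 0.27 (SE 0.0443, adjusted p = 3.11e-05). It passed with each of the 6 clones left out, at 0.32 to 0.40, and did not pass without the clone block (0.36, SE 0.156, adjusted p = 1.00).

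No other member passed. *Knl1* (0.17, SE 0.0497, adjusted p = 0.0578) and *Cenpe* (0.15, SE 0.0517, adjusted p = 0.129) had positive differences below the size limit. *Ska1* had the largest difference in the other direction, −0.32 (SE 0.0936, adjusted p = 0.0505). Its clone ratios were 0.36, 0.11 and 0.59 in *Rps27-FLAG* and 0.04, −0.05 and 0.07 in *Rps27l-FLAG*, so that the widest spread lay within *Rps27-FLAG*. Leaving out replicate 2 of *Rps27-FLAG* moved *Ska1* to −0.44 (adjusted p = 0.00695), the 1 fit of those run in which a second member passed. The median difference over the 41 members was −0.03, with 15 above 0, beside −0.00 over all tested transcripts. These ratios use the same libraries as the comparisons within each line.

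Other genes of chromosome segregation were read from a list of 27, also chosen with earlier results of these data known, of which 26 were tested. It holds cohesion, passenger complex, anaphase and microtubule motor genes. Centromere, kinetochore and checkpoint genes that the name rule did not take are also in it, among them *Cenpc1* of the CCAN, *Hjurp*, *Mis18a*, *Kntc1* and *Trip13*. In IP against total RPFs 4 fell (of all tested transcripts, 5.34% fell in *Rps27-FLAG* and 2.27% in *Rps27l-FLAG*) and 0 rose in each line, the same 4 in both: *Sgo2a*, a shugoshin that protects centromeric cohesion (−0.99, SE 0.104, and −0.76, SE 0.116), *Kntc1*, which encodes the largest RZZ subunit (−0.74, SE 0.0652, and −0.58, SE 0.0666), *Espl1*, the protease separase that opens cohesin (−0.83, SE 0.122, and −0.54, SE 0.100), and *Kif18a*, a kinesin that damps chromosome movement (−0.54, SE 0.101, and −0.49, SE 0.0746). The median of the list was 0.00 and −0.08. *Kntc1* has a CDS of 6621 nt, and its partners in the RZZ complex did not pass without the block: *Zw10* was at −0.07 (SE 0.0551) and −0.13 (SE 0.0731), and *Zwilch* at −0.04 (SE 0.0861) and 0.04 (SE 0.0869). With the clone as a block 7 of the 26 rose and 10 fell in each line, where 18.3% of all tested transcripts rose and 22.9% fell in *Rps27-FLAG*, and 12% rose and 19.0% fell in *Rps27l-FLAG*. Those that rose in both lines included *Birc5* (0.19 and 0.25), *Cdca8* (0.23 and 0.17) and *Pttg1* (0.26 and 0.26), with CDSs of 420, 867 and 597 nt, but also *Ckap5*, a microtubule polymerase with a CDS of 6096 nt (0.11 and 0.15). *Incenp*, the scaffold that *Birc5* and *Cdca8* bind in the chromosomal passenger complex, fell with the block in both lines (−0.16 and −0.19). *Espl1*, with a CDS of 6354 nt, was the 1 of the 26 called in the comparison of ratios, where 0.575% of all tested transcripts passed. It was higher in *Rps27l-FLAG* by 0.29 (SE 0.0451, adjusted p = 5.03e-06), the direction of *Cenpf*. The difference of ratios rose with CDS length, with Spearman's rho of 0.42 over the 41 members and 0.17 over 10082 transcripts. The part of length in the call of *Espl1* was not tested. In the 3 comparisons of total RPFs 0 of the 26 passed.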

How the data were processed

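Per the labels, the submitters' processing notes and the study's methods, the authors trimmed reads with cutadapt 2.4, removed duplicates by molecular identifiers (UMI-tools 1.0.1), discarded rRNA, tRNA and snRNA reads, aligned the rest with Bowtie2 2.3.4.3 to GRCm38 transcripts and kept unique alignments. The deposited values are raw counts of ribosome A sites per transcript over the CDS, leaving out the first 15 and last 5 codons. Unique alignment lowers counts where sequence is shared.

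All 15 columns of counts were used. The 13 mitochondrial transcripts were left out, and transcripts with CPM over 2 in at least 14 libraries were kept. TMM factors were computed for IP and total libraries separately, and normalized CPM are counts over the scaled library size. Tests used the quasi-likelihood test of edgeR 4.0.16 in R 4.3.3 with Benjamini-Hochberg adjustment, with the cell line (9 total libraries), the fraction (6 libraries of a line) or, for the difference of ratios, line, clone and fraction within line (12 libraries) as terms. Clone ratios had 0.5 counts added. The length trend was a loess curve (span 0.5) on log2 values per library, entered as an offset. DESeq2 1.42.0, voom with limma 3.58.1, other scalings and filters, and each clone left out were alternatives. Only the main fits were tested on simulated counts, which held no clone, batch or length effects. The alternatives were not tested in this way, nor were changes as small as most of those reported here. CDS lengths and sequences came from GENCODE M21 (21713 of 21727 transcripts matched, 14 did not), which may not be the release the authors aligned to. Figures used Python 3.11.15 and matplotlib 3.10.9.

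The IP and total library of one replicate come from one clone, per the study's supplementary sample sheet, and residuals of the 2 correlated with r of 0.468 to 0.790 in the 6 clones. The replicate number also marks the sequencing batch: total libraries of equal number in other lines had r of −0.164 to 0.713 over 9 pairs. Clones are separate selections from one parental line. The members and lists were chosen with earlier results of these data known. Genes named were *Cenpe*, *Cenpf*, every member passing with or without the block, the 5 largest changes per IP comparison, the 3 highest and lowest densities, and other members by complex. The markers were *Pou5f1*, *Nanog*, *Sox2*, *Esrrb*, *Zfp42*, *Klf4*, *Tfcp2l1* and *Dppa5a* (pluripotency), *Gata4*, *Gata6*, *Sox17* and *Pdgfra* (primitive endoderm), *Col1a1*, *Col1a2*, *Postn* and *Thy1* (fibroblast), and *T*, *Pax6*, *Sox1* and *Foxa2* (germ layers).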

Additional observations from a re-analysis of the deposited data

Results flagged for a closer look

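The IP to total ratio of *Cenpf* differed between the 2 tagged lines by a test of the difference itself, with a log2 difference of 0.36 between *Rps27l-FLAG* and *Rps27-FLAG* (SE 0.0434, adjusted p = 6.08e-10, edgeR quasi-likelihood test over all transcripts). All 3 *Rps27l-FLAG* clones lay above all 3 *Rps27-FLAG* clones. The fit held the clone as a block, and its p-value also rests on a spread estimated over all tested transcripts. Without the block the difference did not pass.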

How the results depend on the processing

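The replicate block had the largest effect: with it 1 member passed in total RPFs of *Rps27l-FLAG* against WT (0 without), 23 in place of 5 in IP against total RPFs of *Rps27-FLAG*, and 16 in place of 2 in *Rps27l-FLAG*. With the block and the length trend removed 15 and 12 passed, and with the length trend removed alone 1 and 1. In *Rps27-FLAG*, 3 members passed with DESeq2 size factors in edgeR, with TMM over all 15 libraries, with CPM over 2 in at least 3 libraries and without a filter. Leaving out 1 clone gave 0 to 9 members in *Rps27-FLAG* and 0 to 2 in *Rps27l-FLAG*, and with the block, an alternative chosen after seeing the data, 17 to 18 and 12 to 13. For the difference of ratios, 0 members passed with no replicate block and 1 to 2 with 1 clone left out. The median WT density stayed between 59.4 and 65.2. With the length trend removed, without and with the block, directions reversed for *Bub1* in *Rps27-FLAG* (0.11 and 0.11) and in *Rps27l-FLAG* (0.062 and 0.059), *Cenpw* in *Rps27-FLAG* (−0.048 and −0.058) and *Cenpj* in *Rps27-FLAG* (0.022 and 0.010). Of 630 alternative values for 42 log2 fold changes of single members, 474 kept direction and side of the threshold, 118 came to pass, 30 ceased to pass and 8 reversed. Apart from the construction of each alternative, causes were not tested. With 3 clones a group, log2 differences near the median SE of 0.10 were not detectable in total RPFs. Larger ones did not pass without the block either, among them −0.40 (*Spc24*, *Rps27l-FLAG* against WT) and −0.31 (*Cenpp*, *Rps27l-FLAG* against *Rps27-FLAG*). The smallest difference that could be detected was not determined.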
